A study of Mus musculus with 9 samples.

Results

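The 10 tubulin genes Tuba1a, Tuba1b, Tuba1c, Tuba4a, Tubb2a, Tubb2b, Tubb3, Tubb4b, Tubb5 and Tubg1 were followed through an RNA immunoprecipitation sequencing (RIP-seq) experiment on newborn mouse cortex. The members were chosen by gene symbol, and all transcripts annotated to a symbol were summed to 1 value per gene. All 10 genes were found, in 14 of the 107384 transcript rows, among 18559 protein-coding genes with a count. In RIP-seq an RNA-binding protein is captured from a lysate on antibody-coated beads, and the RNA held on the beads is sequenced. Cortices were taken at postnatal day 0 from mice heterozygous for the Celf2 p.R493H knock-in allele, which was introduced with CRISPR/Cas9, and their cytoplasmic fraction was used throughout. In the CELF2-KI RIP group the fraction was incubated with 10 µg of a rabbit antibody against CELF2 for 3 h, in the IgG RIP group with normal rabbit IgG instead, and the input group is RNA from an aliquot set aside before the pull-down. Each group held 3 libraries, described as biological replicates. All 9 libraries carried the knock-in allele, none came from wild-type cortex, and the antibody is not described as separating the mutant protein from the wild-type one made from the other allele. The lysate held RNA of all cortical cells, which the labels name as neurons, radial glia, astrocytes, oligodendrocyte precursors, microglia and endothelium.

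Microtubules are hollow polymers of alpha- and beta-tubulin heterodimers, and gamma-tubulin nucleates them at centrosomes and along older microtubules. Mammals carry several alpha and beta genes, the isotypes, whose proteins are nearly alike along the body and differ most at the carboxy-terminal tail. In the developing cortex they build the mitotic spindle of progenitors and the microtubules of migrating neurons, axons and dendrites, and variants in several of them are known causes of cortical malformation. CELF2 is an RNA-binding protein that acts on splicing in the nucleus and on stability and translation of mRNA in the cytoplasm.

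The genes lie in a few places on the mouse genome (GRCm38.p6). The closely related alpha genes Tuba1b (chr15:98931429-98934390), Tuba1a (chr15:98949847-98953501) and Tuba1c (chr15:99029891-99038105) sit side by side on chromosome 15, and Tuba4a lies apart at chr1:75214972-75221261. Among the beta genes, Tubb2a (chr13:34074278-34078008) and Tubb2b (chr13:34127008-34130354) are neighbours on chromosome 13, while Tubb3 (chr8:123411553-123422015), Tubb4b (chr2:25222158-25224702) and Tubb5 (chr17:35833920-35838301) are each alone. The gamma-tubulin gene Tubg1 lies at chr11:101119904-101126423. Tuba4a had 4 transcript rows, Tubg1 had 2 and the other 8 genes had 1 each.

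The input libraries held 55250725 to 78514665 counts in protein-coding genes, the IgG RIP libraries 9347252 to 14965224 and the CELF2-KI RIP libraries 13523190 to 16840230. The 10 tubulin genes together took 1.74% to 1.86% of these counts in input, 0.719% to 1.07% in IgG RIP and 0.757% to 0.971% in CELF2-KI RIP. Both pull-downs thus carried a smaller tubulin share than the input, and their ranges overlapped each other. Levels below are CPM, a gene's counts relative to those of its library, scaled by edgeR's trimmed mean of M-values (TMM), a scaling that assumes most genes do not differ, and they are read between groups of libraries for 1 gene at a time, since no transcript lengths were used. A gene was called higher or lower when edgeR's quasi-likelihood test gave a Benjamini-Hochberg adjusted p under 0.01 over all 15267 tested genes and the difference was at least 2-fold, which is 1 on the log2 scale. A level in a pull-down is relative to the other RNA in that pull-down, so a lower value does not say that less of the mRNA was bound.

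The tubulin genes split in the CELF2-KI RIP. Compared with IgG RIP, 3 of the 10 were higher (Tuba1b, Tubb3 and Tubb5), beside 13.4% of all tested genes called higher. A further 3 were lower (Tuba1a, Tubb4b and Tubg1), beside 13.6% of all tested genes, and 4 were not called. Compared with input, 1 was higher (Tuba1b), beside 14.6% of all tested genes, and 5 were lower (Tuba1a, Tuba4a, Tubb2b, Tubb4b and Tubg1), beside 15.5%. Tuba1b alone was called higher than both controls, beside 7.58% of all tested genes, and Tuba1a, Tubb4b and Tubg1 were called lower than both, beside 9.54%. For 3 of the 10 genes (Tuba1b, Tubb3 and Tubb5) each CELF2-KI RIP library exceeded each of the 6 controls, beside 25.2% of all tested genes, and each was below all 6 for 3 genes (Tuba1a, Tubb4b and Tubg1), beside 19.9%. Over IgG RIP the 10 genes had a median of -0.13 on the log2 scale, beside -0.06 for all tested genes, and over input -1.05, beside 0.19. The median of tested genes over IgG RIP rose with mean CPM, from -0.515 in the lowest decile to 0.606 in the highest. That highest decile had an upper quartile of 1.18 over IgG RIP and a median of 0.756 over input. It held Tuba1a, Tuba1b, Tubb2a, Tubb2b, Tubb3 and Tubb5, and Tubb3 (1.11 over IgG RIP) lay below that upper quartile. Mean CPM includes the CELF2-KI RIP libraries, so these deciles are not independent of the contrasts. Both contrasts share the CELF2-KI RIP libraries, so a gene's place in one is not independent of its place in the other.

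**Figure D1:**
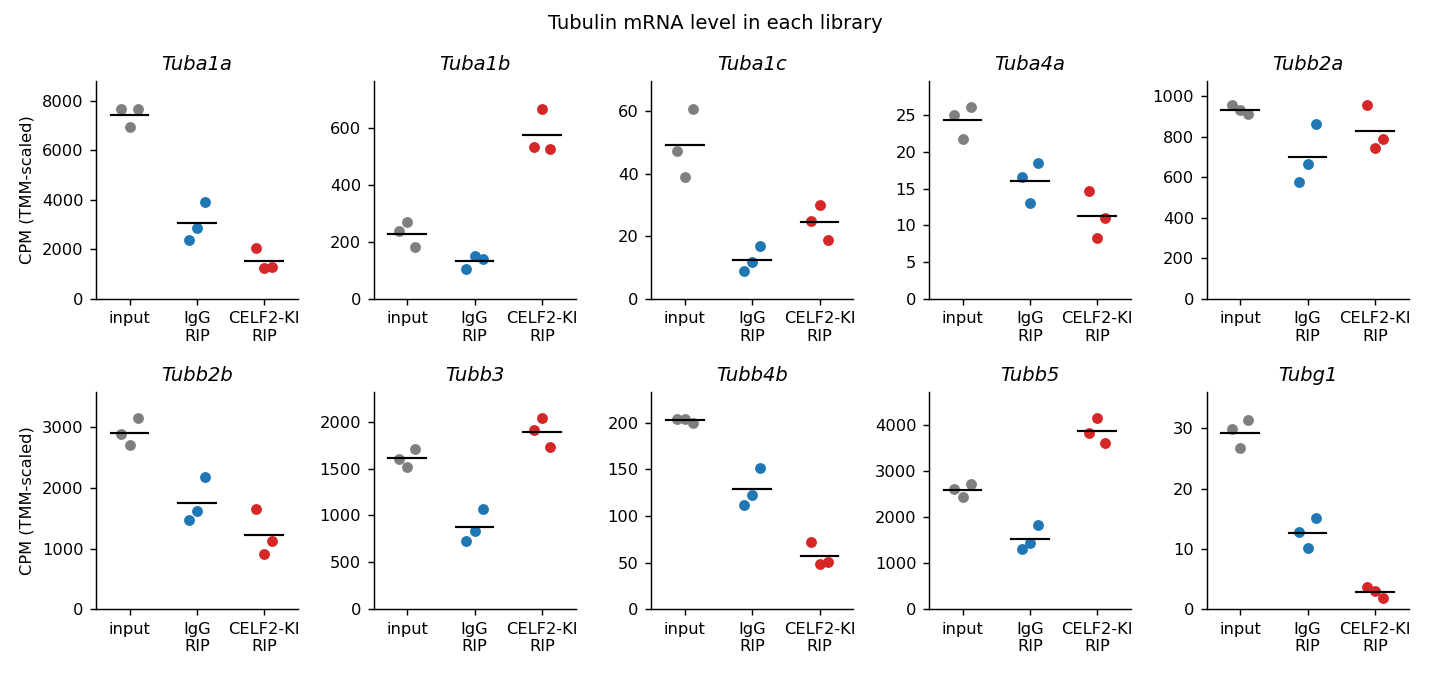
Level of each tubulin gene in each library, in TMM-scaled CPM on a linear axis that starts at 0 and differs between panels. Each point is 1 library, the bar is the mean of 3 libraries, and the groups are input (grey), IgG RIP (blue) and CELF2-KI RIP (red). The red points lie above all others for Tuba1b, Tubb3 and Tubb5 and below all others for Tuba1a, Tubb4b and Tubg1; without TMM scaling, Tubb5 overlaps the input and Tubb3 lies below it.

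Tuba1b, a broadly expressed alpha-tubulin gene, had the largest positive log2 fold change of the 10 members over both controls. It stood at 533, 667 and 526 CPM in CELF2-KI RIP replicates 1, 2 and 3. The level was 103, 152 and 139 CPM in the IgG RIP and 237, 269 and 180.1 CPM in the input. The 3 CELF2-KI RIP libraries did not overlap either control, and the IgG RIP libraries were all below the input. The log2 fold change was 2.13 ± 0.19 (SE) over IgG RIP (edgeR, adjusted p = 1.55e-05), which ranked at the 98.9th percentile of the tested genes, and 1.33 ± 0.19 over input (edgeR, adjusted p = 0.000162). With libraries scaled to total counts in place of TMM, the value was 1.76 over IgG RIP and still called, but 0.86 over input, under 2-fold. Leaving out any 1 of the 9 libraries kept both calls, with values of 1.98 to 2.26 over IgG RIP and 1.18 to 1.39 over input.

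Tubb5 and Tubb3 were higher than in the IgG RIP but not called against input. Tubb5 encodes a beta-tubulin of progenitors and neurons. It had 3839, 4161 and 3616 CPM in the CELF2-KI RIP, 1313, 1450.2 and 1846 CPM in the IgG RIP and 2609, 2440.2 and 2726 CPM in the input. The CELF2-KI RIP libraries lay above both controls. It differed by 1.33 ± 0.14 on the log2 scale (SE) over IgG RIP (edgeR, adjusted p = 2.82e-05). Over input it was 0.58 ± 0.13 (edgeR, adjusted p = 0.00372), which passed the adjusted p but stayed under 2-fold.

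Tubb3 encodes the beta-tubulin used as a marker of postmitotic neurons. It had 1906, 2042 and 1733 CPM in the CELF2-KI RIP, 729, 833 and 1074 CPM in the IgG RIP and 1601, 1518 and 1704 CPM in the input. The lowest CELF2-KI RIP library was just above the highest input library and well above every IgG RIP library. Over IgG RIP the log2 fold change was 1.11 ± 0.14 (SE) (edgeR, adjusted p = 0.000121), and over input 0.24 ± 0.14 (edgeR, adjusted p = 0.177). Both calls over IgG RIP rested on the scaling: with total counts the log2 fold change was 0.96 for Tubb5 and 0.74 for Tubb3, under 2-fold, and that of Tubb3 over input turned to -0.23. Without TMM scaling the CELF2-KI RIP libraries still lay above every IgG RIP library for both genes, but against input Tubb5 overlapped (2996 to 3369.9 against 2821 to 3051 unscaled CPM) and Tubb3 lay below (1436 to 1672 against 1755 to 1907 unscaled CPM). The Tubb3 call was also lost without IgG RIP replicate 1, at 0.98, and with curated transcript rows only, at 0.96.

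Tuba1a, the alpha-tubulin gene of newborn neurons and the one most often mutated in tubulin-related cortical malformation, was lower in the CELF2-KI RIP than in both controls. It stood at 2066, 1222 and 1266 CPM in the CELF2-KI RIP. The IgG RIP had 2388, 2876 and 3899.9 CPM and the input 7657, 6924 and 7673 CPM. The groups did not overlap, and the order input, IgG RIP, CELF2-KI RIP held for every library. The log2 fold change was -2.29 ± 0.23 (SE) over input (edgeR, adjusted p = 2.54e-05), called in all 9 fits that left out 1 library. Over IgG RIP it was -1.01 ± 0.23 (edgeR, adjusted p = 0.00342), at the edge of the 2-fold limit. That call was lost without IgG RIP replicate 3 (-0.80), CELF2-KI RIP replicate 2 (-0.88) or replicate 3 (-0.89), or input replicate 1 or 3 (each -0.997), and the number of tubulin genes lower than both controls then fell from 3 to 2.

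Tubb4b and Tubg1 were lower than both controls in every fit that left out 1 library. Tubb4b, a broadly expressed beta-tubulin that is also a main component of cilia, had 72.3, 48.4 and 50.9 CPM in the CELF2-KI RIP, 112, 123 and 151 CPM in the IgG RIP and 204, 204 and 199.99 CPM in the input. Its groups did not overlap. The CELF2-KI RIP was at -1.17 ± 0.17 (SE) on the log2 scale over IgG RIP (edgeR, adjusted p = 0.000222) and -1.83 ± 0.17 over input (edgeR, adjusted p = 1.53e-05). Tubg1, the gamma-tubulin gene of the nucleating ring complex, had 3.7, 3.0 and 2.0 CPM in the CELF2-KI RIP, 12.8, 10.1 and 15.1 CPM in the IgG RIP and 29.8, 26.8 and 31.3 CPM in the input. Its CELF2-KI RIP values were the lowest and rested on 46, 39 and 22 counts. The log2 fold change was -2.13 ± 0.24 (SE) over IgG RIP (edgeR, adjusted p = 4.6e-05), at the 2.9th percentile of tested genes, and -3.34 ± 0.24 over input (edgeR, adjusted p = 3.62e-06).

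**Figure D2:**
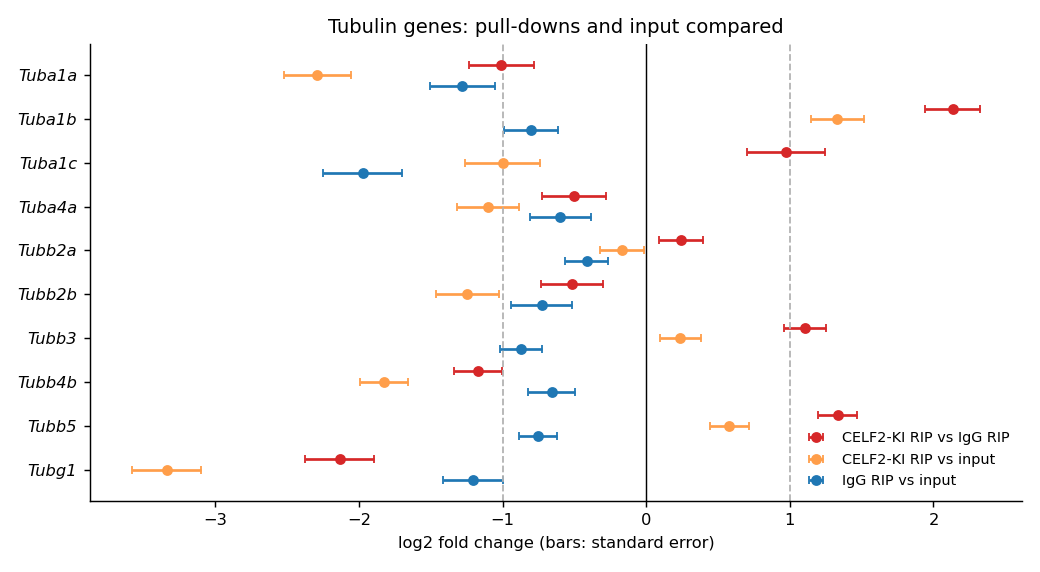
Log2 fold change of each tubulin gene with its standard error (bars) from the edgeR fit over all 9 libraries, for CELF2-KI RIP over IgG RIP (red), CELF2-KI RIP over input (orange) and IgG RIP over input (blue); dashed lines mark 2-fold. All 10 blue points lie below 0, while the red points run from -2.13 (Tubg1) to 2.13 (Tuba1b); with total counts as scaling, the red point of Tubb2a and the orange point of Tubb3 move below 0.

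The other 4 genes were not called against IgG RIP. Tuba1c, a minor alpha gene next to Tuba1a, had 24.8, 29.9 and 18.7 CPM in the CELF2-KI RIP, 8.8, 11.6 and 17.0 CPM in the IgG RIP and 47.3, 39.0 and 60.6 CPM in the input. It therefore lay between the controls, and no library of one group overlapped another group. Its log2 fold change was 0.97 ± 0.27 (SE) over IgG RIP (edgeR, adjusted p = 0.0112) and -0.999 ± 0.26 over input (edgeR, adjusted p = 0.00753), where it fell just short of 2-fold. Small shifts made the calls: over IgG RIP it was called without IgG RIP replicate 3 (1.27) or CELF2-KI RIP replicate 3 (1.13). Over input it was called without input replicate 2 (-1.25) or CELF2-KI RIP replicate 2 (-1.17), and under 4 of the other settings, at -1.12 to -1.46.

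Tuba4a, an alpha-tubulin gene that rises with neuronal maturation, had 14.7, 8.2 and 11.1 CPM in the CELF2-KI RIP, 16.6, 13.0 and 18.5 CPM in the IgG RIP and 25.05, 21.8 and 26.1 CPM in the input. The pull-downs overlapped, with a log2 fold change of -0.50 ± 0.22 (SE) over IgG RIP (edgeR, adjusted p = 0.0765). Over input it was -1.10 ± 0.22 (edgeR, adjusted p = 0.00144), a call lost without CELF2-KI RIP replicate 2 (-0.91).

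Tubb2a and Tubb2b encode neuronal beta-tubulins, and variants in either are known in cortical malformation. Tubb2b had 1644, 906 and 1129 CPM in the CELF2-KI RIP, 1472, 1611 and 2180.0 CPM in the IgG RIP and 2881, 2697 and 3142 CPM in the input. CELF2-KI RIP replicate 1 lay among the IgG RIP libraries, and the log2 fold change was -0.52 ± 0.21 (SE) over IgG RIP (edgeR, adjusted p = 0.0638) and -1.24 ± 0.22 over input (edgeR, adjusted p = 0.000668). Tubb2a was the member closest to its controls, with 956, 744 and 788 CPM in the CELF2-KI RIP, 577, 662 and 861 CPM in the IgG RIP and 957, 933 and 910.5 CPM in the input. Its groups overlapped in both contrasts with the CELF2-KI RIP. The log2 fold change was 0.24 ± 0.15 (SE) over IgG RIP (edgeR, adjusted p = 0.202), which turned to -0.11 with total counts, and -0.17 ± 0.15 over input (edgeR, adjusted p = 0.355).

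The tubulin genes were also below input in the pull-down with control IgG. In the IgG RIP all 3 libraries lay below all 3 input libraries for each of the 10 genes, a pattern that 29.4% of all tested genes showed. None of the 10 was called higher than input, beside 6.79% of all tested genes, and 3 were called lower, beside 5%. These were Tuba1c at a log2 fold change of -1.97 ± 0.27 (SE; edgeR, adjusted p = 0.000577), Tuba1a at -1.28 ± 0.23 (edgeR, adjusted p = 0.00196) and Tubg1 at -1.20 ± 0.21 (edgeR, adjusted p = 0.00184). The Tubg1 call was lost with curated transcript rows only (-1.05; edgeR, adjusted p = 0.077). Tuba1b (-0.80), Tubb3 (-0.87) and Tubb5 (-0.75) passed the adjusted p at under 2-fold, and Tubb3 was called without IgG RIP replicate 3 (-1.04). The median of the 10 genes was -0.78, beside -0.0036 for all tested genes. The 3 genes higher in the CELF2-KI RIP than in the IgG RIP were therefore compared there with a control in which their level was already below the input.

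**Figure D3:**
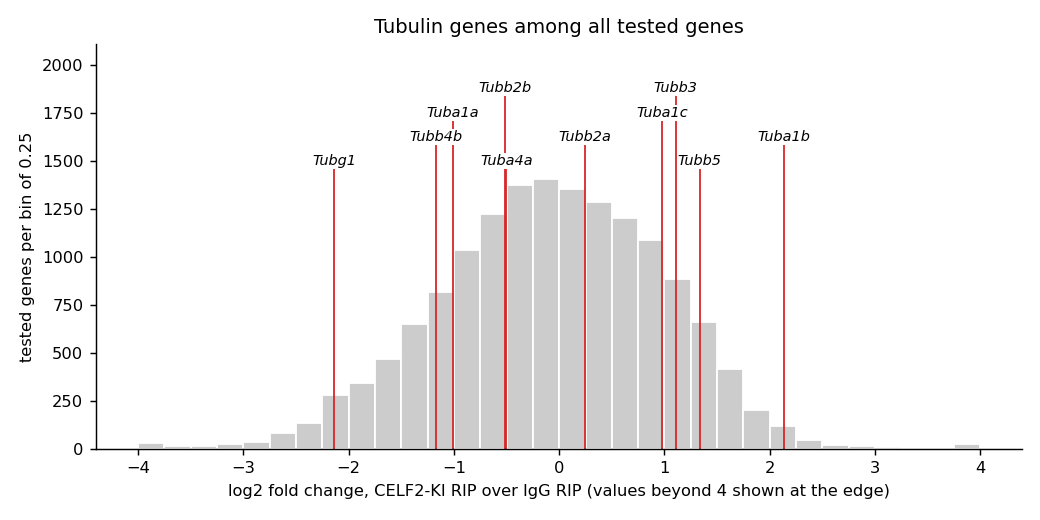
Histogram of the CELF2-KI RIP to IgG RIP difference (log2) for all 15267 tested genes (grey, bins of 0.25; values beyond 4 are drawn in the outermost bins) with the 10 tubulin genes marked by red lines. Tuba1b lies in the upper tail and Tubg1 in the lower tail, with the other 8 genes between -1.17 and 1.33.

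The make-up of the tubulin mRNA pool was compared within each library, which needs no scaling between libraries. Shares here are shares of counts, not corrected for transcript length, so they were read across groups and not as the amount of one isotype against another. Shares within a family add up to a whole, so a larger share of a gene lowers those of the others. Tuba1b held 20.3% to 34.8% of the counts of Tuba1a, Tuba1b and Tuba1c together in the CELF2-KI RIP. Its share was 3.42% to 4.996% in the IgG RIP and 2.28% to 3.72% in the input. Tuba1a held 63.7% to 78.8% in the CELF2-KI RIP and 94.6% to 97.0% in the 6 controls. Tuba1b thus held a larger share, and Tuba1a a smaller one, in each CELF2-KI RIP library than in any control.

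The shares of Tubb5, Tubb2b and Tubb3 among the beta genes also set the CELF2-KI RIP apart. Tubb5 held 45.6% to 52.7% of the counts of the 5 beta genes in the CELF2-KI RIP, 30.2% to 31.2% in the IgG RIP and 31.3% to 31.6% in the input. The share of Tubb2b was 11.5% to 19.5% in the CELF2-KI RIP, 34.4% to 35.7% in the IgG RIP and 34.6% to 36.2% in the input. Its level overlapped the IgG RIP and was not called against it (log2 fold change -0.52), so the smaller share also reflects the larger share of Tubb5. Tubb3 held 22.6% to 25.8% in the CELF2-KI RIP, 17.3% to 17.8% in the IgG RIP and 19.4% to 19.6% in the input. For Tubb5 and Tubb2b the shares of IgG RIP and input lay close together. For Tubb3 every IgG RIP library lay below the input. The CELF2-KI RIP libraries stood apart from both controls for each of these genes.

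**Figure D4:**
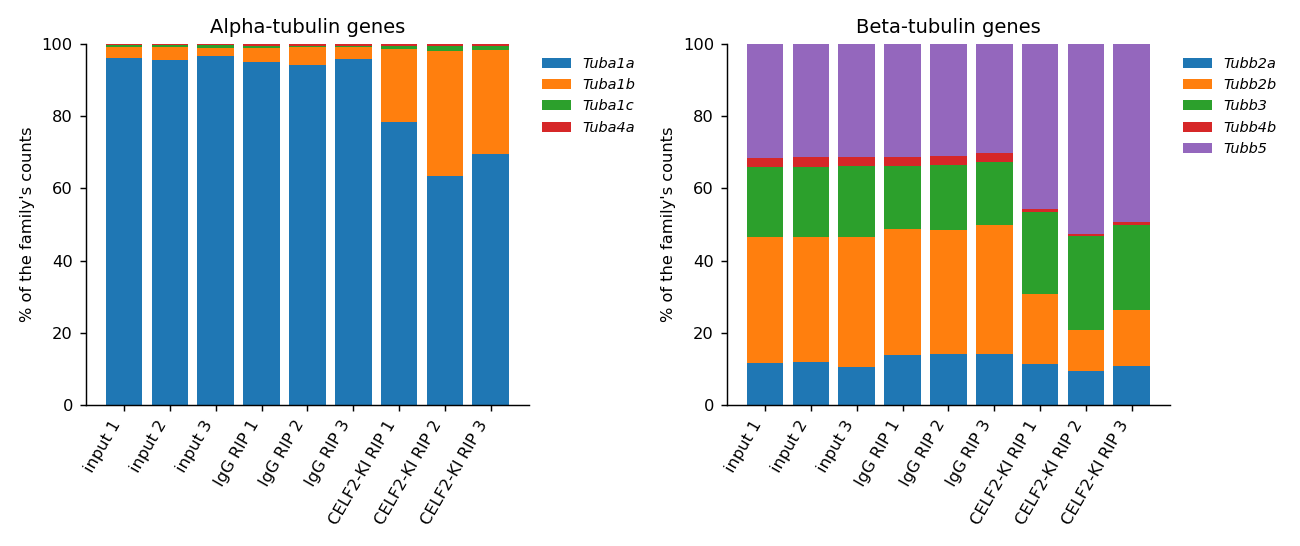
Share of each gene in the counts of the 4 alpha-tubulin members (left) and the 5 beta-tubulin members (right), in percent, with 1 stacked bar per library. In the 3 CELF2-KI RIP bars the Tuba1b and Tubb5 segments are larger, and the Tuba1a and Tubb2b segments smaller, than in the 6 control bars.

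Ratios of related genes were tested over the libraries. The count ratio of Tuba1a to Tuba1b was 3.88, 1.83 and 2.41 in the 3 CELF2-KI RIP libraries. It was 23.1, 18.9 and 28.1 in the IgG RIP and 32.3, 25.8 and 42.6 in the input. Its mean was 2.71 ± 1.055 (SD, n = 3) in the CELF2-KI RIP and 23.4 ± 4.59 (SD, n = 3) in the IgG RIP, a difference of -3.16 on the log2 scale. Tuba1b to Tuba1c stood at 23.96 ± 3.57, 10.99 ± 2.54 and 4.96 ± 1.96 (SD, n = 3 each) in the CELF2-KI RIP, IgG RIP and input, so that this ratio also lay apart in the controls. Tubb2a to Tubb2b stood at 0.7002 ± 0.120, 0.399 ± 0.0102 and 0.323 ± 0.0293 (SD, n = 3 each) in the same order. Tubb3 to Tubb5, 2 genes that were both higher than in the IgG RIP, stood at 0.489 ± 0.00865, 0.571 ± 0.0139 and 0.620 ± 0.00595 (SD, n = 3 each).

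For all 4 ratios the CELF2-KI RIP libraries lay outside the range of the 6 controls. How often other gene pairs do so was not counted. Of all single tested genes, 25.2% lay above and 19.9% below all 6 controls, so such a separation is not particular to tubulin genes. The two-sided exact permutation test gave p = 0.02381 against the 6 controls for each ratio, the smallest p that 3 against 6 libraries allow, and 0.02381 after Benjamini-Hochberg adjustment over the 4 ratios. That test treats the IgG RIP and input libraries as interchangeable and ignores their replicate numbers. For Tuba1a to Tuba1b its outcome was fixed by the single-gene levels, since Tuba1b lay above and Tuba1a below all 6 controls. It therefore added nothing to those levels. Tuba1a to Tuba1b and Tuba1b to Tuba1c share Tuba1b, so the 4 ratios were not independent. With the CELF2-KI RIP label permuted only within a replicate number, a test added after seeing the data, the exact permutation p was 0.07407 for each ratio (adjusted 0.07407), the smallest this design allows, so the ratios then did not pass 0.05. Against the IgG RIP alone the exact permutation p was 0.1 for each, also 0.1 adjusted, and 3 against 3 libraries cannot give less. Between IgG RIP and input it was 0.2 for Tuba1a to Tuba1b (adjusted 0.2) and 0.1 for the other 3 ratios (adjusted 0.1333).

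Tuba1a, Tuba1b and Tuba1c are nearly identical in coding sequence, as are Tubb2a and Tubb2b, and the deposited counts divide reads that match several transcripts by an estimate, so the single-gene values of these 5 genes are uncertain by an amount the files do not give. Summing such genes before the fit, a setting chosen after seeing the data, gave values without that division. Tuba1a, Tuba1b and Tuba1c summed stood at 1811 to 2624 CPM in the CELF2-KI RIP, 2499 to 4055 CPM in the IgG RIP and 7233 to 7942 CPM in the input. The log2 fold change was -0.59 over IgG RIP and -1.86 over input, so the sum went the other way from Tuba1b. Tuba1a held 94.6% to 96.2% of these counts in the IgG RIP and 95.7% to 97.0% in the input. The sum therefore mostly follows Tuba1a and cannot decide whether the value of Tuba1b is right. Tubb2a and Tubb2b summed gave -0.26 and -0.90. All 4 alpha genes summed gave -0.59 over IgG RIP and -1.86 over input, and all 5 beta genes 0.67 and -0.07.

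Tuba4a and Tubg1 had several transcript rows. The main curated row of Tuba4a held 90.1% to 91.3% of the gene's counts in the input, 83.0% to 93.2% in the IgG RIP and 63.1% to 71.4% in the CELF2-KI RIP. The curated row of Tubg1 held 87.0% to 94.3%, 86.1% to 97.4% and 55.0% to 100% in the same order. In the CELF2-KI RIP these shares rested on few counts per gene, and the other rows were estimated at 0 in some libraries.

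Of the 10 remaining tubulin genes listed, 5 were tested, and the other 5 (Tuba3a, Tuba3b, Tuba8, Tubal3 and Tubb1) had at most 24 counts in any library. Tubg2, the second gamma-tubulin gene, had 3.0, 2.7 and 2.8 CPM in the CELF2-KI RIP, 10.1, 11.6 and 13.4 CPM in the IgG RIP and 18.3, 16.9 and 20.3 CPM in the input. Tubg2 was lower than the IgG RIP at a log2 fold change of -2.04 ± 0.18 (SE, edgeR, adjusted p = 1.35e-05), like Tubg1 at -2.13. It rested on 38, 35 and 31 counts in the CELF2-KI RIP. How reads were divided between Tubg1 and Tubg2 was not examined, so their values may not be separate measurements. Tubb4a, a beta-tubulin of neurons and oligodendrocytes, was at -0.25, Tubb6 at -0.03, the delta-tubulin gene Tubd1 at -0.92 and the epsilon-tubulin gene Tube1 at 0.19, none of them called. Over input, Tubg2 (-2.70), Tubb4a (-1.16) and Tubd1 (-1.63) were lower.

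The genes around tubulin protein were counted in the same contrast with IgG RIP, where the median of all tested genes was -0.06 and 13.4% of them were called higher and 13.6% lower. The CCT chaperonin folds newly made tubulin and actin, and of its 8 subunit genes none was higher and 4 were lower, with a list median of -1.12. Cct2 was at -1.58 ± 0.20, Cct5 at -1.52 ± 0.14 and Cct3 at -1.47 ± 0.21 (SE). Prefoldin, which hands nascent chains to CCT, had 2 of 6 genes higher and 3 lower, and a median of -0.21. Pfdn6 was at -2.29 and Pfdn1 at -1.95, while Pfdn2 was at 1.58 and was higher than the input too, at 1.28.

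The folding cofactors assemble the heterodimer after CCT, and 1 of these 7 genes was higher and 3 were lower, beside 13.4% and 13.6% of all tested genes, with a median of -1.12. Tbcb was at -1.43 and Tbca at -1.40. Tbcel, a cofactor-like gene known to destabilise tubulin, was at 3.58 ± 0.50 (SE; edgeR, adjusted p = 0.000179). Its level was 29.2, 33.6 and 16.9 CPM in the CELF2-KI RIP, 2.8, 3.5 and 0.5 CPM in the IgG RIP and 18.7, 14.2 and 19.6 CPM in the input. Tbcel thus differed from the IgG RIP but overlapped the input, at 0.60 ± 0.42 (edgeR, adjusted p = 0.234).

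Of the 10 genes of the gamma-tubulin ring complex and its partners, 1 was called higher and none lower, beside the same shares of 13.4% and 13.6%, with a median of -0.04, while the 2 gamma-tubulin genes themselves were lower. The called gene, Nedd1, a targeting factor of the complex, had 45, 1 and 20 counts in the CELF2-KI RIP and 0, 2 and 0 counts in the IgG RIP, so its groups overlapped and no fold change is given. Among 21 enzymes that modify tubulin, 1 was higher and 5 were lower, beside 13.4% and 13.6% of all tested genes, with a median of -0.46. The deacetylase gene Sirt2 was at -1.998 ± 0.16, the glycylase gene Ttll3 at -1.76 ± 0.25 and Svbp, the partner of the vasohibin detyrosinases, at -1.71 ± 0.30 (SE). Vash1, a vasohibin that removes the terminal tyrosine of alpha-tubulin, was the gene called higher, at 1.17 ± 0.10, and was also higher than the input at 1.37 ± 0.10.

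The pathway that degrades tubulin mRNA when free tubulin is high was represented by 3 genes, of which none was higher and 1 was lower, beside 13.4% and 13.6% of all tested genes. That gene was Scaper, at -1.45 ± 0.28 (SE; edgeR, adjusted p = 0.00135). Ttc5, which recognises nascent tubulin chains, was at 0.65 ± 0.17, an adjusted p of 0.0074 with edgeR at under 2-fold.

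**Figure D5:**
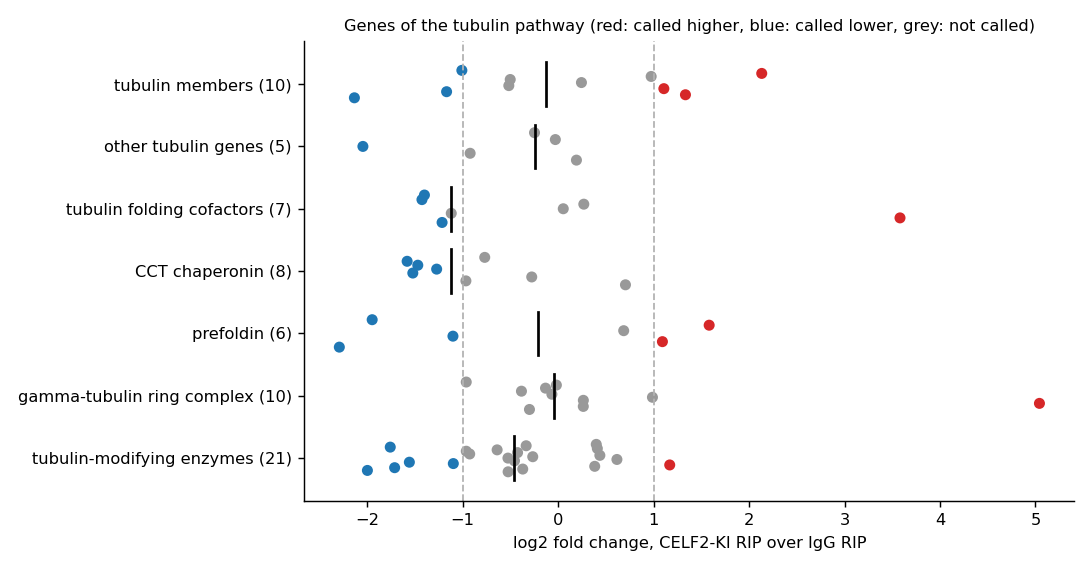
CELF2-KI RIP to IgG RIP difference (log2) for each tested gene of 7 lists (number of tested genes in brackets), coloured red where called higher, blue where called lower and grey where not called; the black bar is the list median and dashed lines mark 2-fold. The CCT chaperonin and the folding cofactors have their medians at -1.12, and the point furthest right in the gamma-tubulin ring complex is Nedd1, whose value rests on 2 counts in the IgG RIP.

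Markers of cell types also differed between the CELF2-KI RIP and the IgG RIP, where 13.4% of all tested genes were called higher and 13.6% lower. Of 7 excitatory neuron markers, 4 were higher than in the IgG RIP and none lower, and their summed level was 1671 to 2279 CPM in the CELF2-KI RIP, 894 to 1041 CPM in the IgG RIP and 971 to 1135 CPM in the input. Of 7 markers of radial glia and progenitors, none was higher and 3 were lower (Vim, Mki67 and Fabp7), at a summed 153 to 242, 385 to 474 and 541 to 591 CPM. All 5 erythroid genes were lower, at a summed 92.7 to 94.96, 366 to 584 and 877 to 1135 CPM. Of the other lists, 1 of 5 inhibitory neuron genes, 1 of 6 genes of the astrocyte and oligodendrocyte lineage and 1 of 4 tested microglial genes were higher, counts of 1 that say little beside a share of 13.4%, none of 5 vascular genes was called, and no gene of these 4 lists was lower. No marker of neurons, progenitors or erythroid cells was at 0 in any library, while the microglial genes Aif1, Csf1r and P2ry12 were at 0 in some. The tubulin genes did not follow the neuronal markers as a group: over IgG RIP, Tubb3 (1.11) and Tubb5 (1.33) were higher, Tuba1a (-1.01) was lower, and Tubb2a (0.24) and Tubb2b (-0.52) were not called. The part of cell type in these differences was not tested. Every group was taken from the cytoplasmic fraction of bulk cortex, in which the number of cells of a type and the RNA per cell cannot be told apart, and a level in a pull-down also depends on what the beads held.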

How the data were processed

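RIP-seq libraries (3 CELF2-KI RIP, 3 IgG RIP, 3 input) were ribosomal RNA depleted and made with a directional kit. Per the labels, reads were checked with FastQC 0.11.9, trimmed with fastp 0.23.4 and cleared of ribosomal RNA with Ribodetector 0.3.1. The submitters' processing notes name mm10, kallisto 0.51.1, DESeq2 1.46.0 and edgeR 4.4.0. The authors deposited 1 table of kallisto estimated counts per transcript, not normalised, with RefSeq accessions, although the methods name Ensembl. Estimated counts split reads shared by similar transcripts, which affects close paralogues.

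Rows were assigned to genes by accession through RefSeq (GRCm38.p6). Of 107384 rows, 86722 (80.76%) matched, holding 56.54% to 90.76% of a library's counts, and 20662 were left out. The low end lay in the IgG RIP, which was also uneven. Protein-coding genes held 14965224 of 28773130, 9347252 of 17365561 and 13291369 of 17922343 counts in IgG RIP replicates 1, 2 and 3. Each CELF2-KI RIP library held a larger part, such as 14244468 of 16691385 in replicate 1. Among the tubulin rows, 10 matched with version and 4 by accession alone. Protein-coding counts were summed per gene and rounded. The 15267 genes that reached 0.5 CPM in 3 or more libraries were tested with edgeR 4.0.16 (R 4.3.3), glmQLFit and glmQLFTest, TMM factors and condition as the only term over all 9 libraries. Calls needed an adjusted p under 0.01 and 2-fold. Standard errors are the log2 fold change over the root of F. Ratios of related genes were tested by exact permutation (scipy 1.17.1). The code was tested on simulated counts. The members and gene lists were chosen with earlier results of these data known. All 10 members were named. From the other lists the rule named up to 3 called genes with the largest change over IgG RIP and every tested tubulin gene. Some genes were named outside this rule. Vash1 was added as the only modifying enzyme called higher, although Agbl4 (-1.56) was called lower with a larger change. Ttc5 was added without a call, and Aif1, Csf1r and P2ry12 for libraries without counts.

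Same-numbered CELF2-KI RIP and input libraries deviated together (r = 0.11, 0.117 and 0.122 over genes), while CELF2-KI RIP and IgG RIP did not (-0.056, 0.0429 and 0.0139), nor did IgG RIP and input (0.0305, 0.0646 and 0.0384); the labels do not say that a number marks shared animals. Replicates differed by more than sampling noise (chi-square per gene 11.9 to 44.1). Alternatives were DESeq2 1.42.0 size factors, total counts, no filter, DESeq2's Wald test, a replicate block, curated rows only and leaving out each library, and summed paralogues and a permutation of the ratios within replicate numbers were added after seeing the data.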

Additional observations from a re-analysis of the deposited data

How the results depend on the processing

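Only the scaling moved the counts of called tubulin genes by over 1.5 times. With total counts, 1 gene was called higher than IgG RIP (3 with TMM), 0 higher than input and 0 higher than both (1 each with TMM), and 2 values that were not called changed sign, Tubb2a over IgG RIP to -0.11 and Tubb3 over input to -0.23. This scaling moved the median of all tested genes from -0.06 to -0.42 over IgG RIP and from 0.19 to -0.27 over input, and the higher share of all calls from 49.8% to 21.5% and from 48.5% to 12.9%. Over input, that share was 36.6% with DESeq2 size factors, 38.5% without a filter and 37.6% with DESeq2's Wald test. Leaving out 1 library gave 2 to 4 tubulin genes higher and 2 to 3 lower than IgG RIP, 1 higher and 5 to 6 lower than input, 2 to 3 lower than both controls, and 3 to 4 lower in IgG RIP than in input. With the replicate block, 3 tubulin genes were higher and 3 lower than IgG RIP, and no call of a tubulin gene changed (Tuba1b 2.13, Tuba1a -1.02). Permuting the CELF2-KI RIP label only within a replicate number (a replicate block added after seeing the data) left the log2 differences from the 6 controls as they were, at -3.42 (Tuba1a to Tuba1b), 1.74 (Tuba1b to Tuba1c), 0.95 (Tubb2a to Tubb2b) and -0.28 (Tubb3 to Tubb5), while the exact permutation p went from 0.02381 to 0.07407, because that design allows no smaller one. Between CELF2-KI RIP and IgG RIP, the count ratios kept their direction whenever 1 library of these groups was left out. The log2 difference of Tuba1a to Tuba1b was then -3.46 to -2.92. For the differences from the 6 controls, no library was left out. Depth limited Tubg1, with 22 to 46 counts per CELF2-KI RIP library, more than the other members.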
